A study of Mus musculus with 6 samples.

Results

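The genes described here encode the core cell cycle machinery: the E2F transcription factors with their DP and pocket protein partners, the cyclins and cyclin-dependent kinases (CDKs), the CDK inhibitors, and regulators closely tied to them. The list names 40 genes by symbol, with no cut on their values, and 38 of them had a probe set annotated to that gene alone among the 22180 genes tested. Ccnf and Pkmyt1 had only probe sets shared with other gene symbols and were not analysed here. RNA was measured on Affymetrix whole-transcript arrays in mouse prostate epithelial cancer cells derived from Rb1F/F:Trp53F/F:PB-Cre4 mice, in which a Cre recombinase driven by a probasin promoter removes both floxed tumour suppressor genes in prostate epithelium. The cells had received a lentivirus with an empty vector (EV, 3 arrays) or a lentivirus for the kinase PIM1 (PIM1, 3 arrays). Both groups therefore share the Rb1 and Trp53 floxed alleles and the Cre, and the comparison of PIM1 with EV asks what differed when PIM1 was introduced on that background. The labels do not say whether the cells were a clone or a pool, or whether arrays of a group came from separate cultures or transductions, so p-values reflect the spread among these arrays alone, and that spread may be technical.

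In the textbook pathway, D-type cyclins with CDK4 or CDK6 begin to phosphorylate the retinoblastoma protein, cyclin E with CDK2 completes this step, and released E2F factors switch on genes for DNA replication and for the next cyclins. Cyclin A and cyclin B kinases then carry cells through S phase and into mitosis, where B-MYB and FOXM1 drive late genes. INK4 proteins block CDK4 and CDK6, CIP/KIP proteins bind cyclin-CDK complexes more broadly, and p21, the product of Cdkn1a, is a classical p53 target. PIM kinases are known to phosphorylate p21 and p27, which is a protein event that RNA arrays do not measure.

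Values below are log2 signals, differences are PIM1 minus EV on that scale, and a gene was called when its adjusted p (limma, Benjamini-Hochberg over all genes) was under 0.05. The array medians lay between 3.49 and 3.52 in EV and between 3.38 and 3.42 in PIM1. Interquartile ranges of the arrays lay between 3.23 and 3.26 in EV and between 3.47 and 3.55 in PIM1. Level and spread of the deposited values thus differed between the groups without overlap. Pim1 rose by 1.41 (adjusted p = 0.00455), with all PIM1 arrays above all EV arrays. From which species the inserted PIM1 came, and where on the gene these probes lie, is not known here, so whether the signal reads the insert, the cells' own gene or both was not tested. Arrays correlated at 0.990 or above within a group and at 0.963 to 0.967 between groups. Of the epithelial markers, Krt18 fell from 9.14 ± 0.06 to 4.90 ± 0.12 (SD, n = 3), while Epcam (2.50 in EV, 2.35 in PIM1), Trp63 (2.83 and 2.96) and Pbsn (1.77 and 1.53) lay below the array medians in both groups. Of 8 luminal markers 2 rose, Cd24a from 7.55 to 9.21 and Hoxb13 from 4.99 to 5.57. The 2 that fell were Krt18 and Cdh1 (5.21 to 4.27), and Krt8 was not called (4.73 in EV, 4.65 in PIM1). Of 7 basal markers 3 fell, Itga6 from 8.92 to 6.82, Cdh3 from 6.25 to 4.96 and Lamb3 from 4.40 to 3.37. Among 12 fibroblast markers 10 rose and 1 fell. Their mean signal ran from 6.29 to 6.33 in EV and from 8.13 to 8.19 in PIM1. Dcn rose from 4.85 to 10.33, Pdgfra from 6.23 to 10.93 and Postn from 8.67 to 11.67. Fap fell from 2.18 to 1.71, and Thy1 was not called (3.75 and 3.73). In EV, Col3a1 (9.96), Col1a1 (8.94) and Pdgfrb (8.55) already lay well above the array medians. Macrophage and leukocyte markers numbered 12, with 1 higher and 1 lower, and smooth muscle markers 8, with 1 higher and 2 lower. No endothelial marker of 10 passed limma's test (1 had an unadjusted p under 0.05). Beside these marker counts, 16.1% of all genes tested rose and 10.9% fell. These marker changes move with every result below, and their part in the results was not tested. In bulk RNA, fewer cells of a type and less RNA per cell cannot be told apart.

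The cell cycle regulators moved in both directions in PIM1 cells. Of the 38 measured genes, 9 rose and 7 fell. Those that rose were E2f1, Ccnd2, Ccne1, Cdk2, Cdk7, Cdkn1b, Cdkn2b, Cdkn2d and Cks2. Those that fell were E2f3, E2f6, E2f7, Cdkn1a, Cdkn3, Mybl2 and Foxm1. Only Cdkn1a, Ccnd2 and Cdkn2b, 3 of 38, passed with a difference of at least 2-fold. Of all genes 1388 of 22180 did so, and 1256 of the 11090 at or above the median gene in mean signal. The differences ran from -1.44 to 1.19 with a median of -0.02, beside a median of -0.05 over all genes tested. The order of these medians depended on the setting: after quantile normalization they were -0.11 and 0.0052, and among the brighter genes alone -0.01 and 0.10.

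The share of regulators called was 42.1%, against a background of 27.0% of all genes tested. By direction the shares were 23.7% higher and 18.4% lower, beside 16.1% and 10.9% over all genes. Brightness differed, however, between these genes and the rest: 36 of the 38 lay at or above the median gene in mean signal. Among genes at or above that median 44.0% were called (29.4% higher and 14.7% lower), and among the 36 regulators 44.4% (25% higher and 19.4% lower). The share called was thus near that of the brighter genes, whose median EV signal, 6.38, was still below the 7.56 of the 36 regulators. EV and PIM1 arrays were fully separated for 71.1% of the regulators, 13 higher and 14 lower in PIM1, against 43.2% of all genes and 62.2% of those at or above the median signal. After centring each array on its median, 12 regulators were called higher and 6 lower, and the share of higher calls among all called genes moved from 59.6% to 73.5%.

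**Figure D1:**
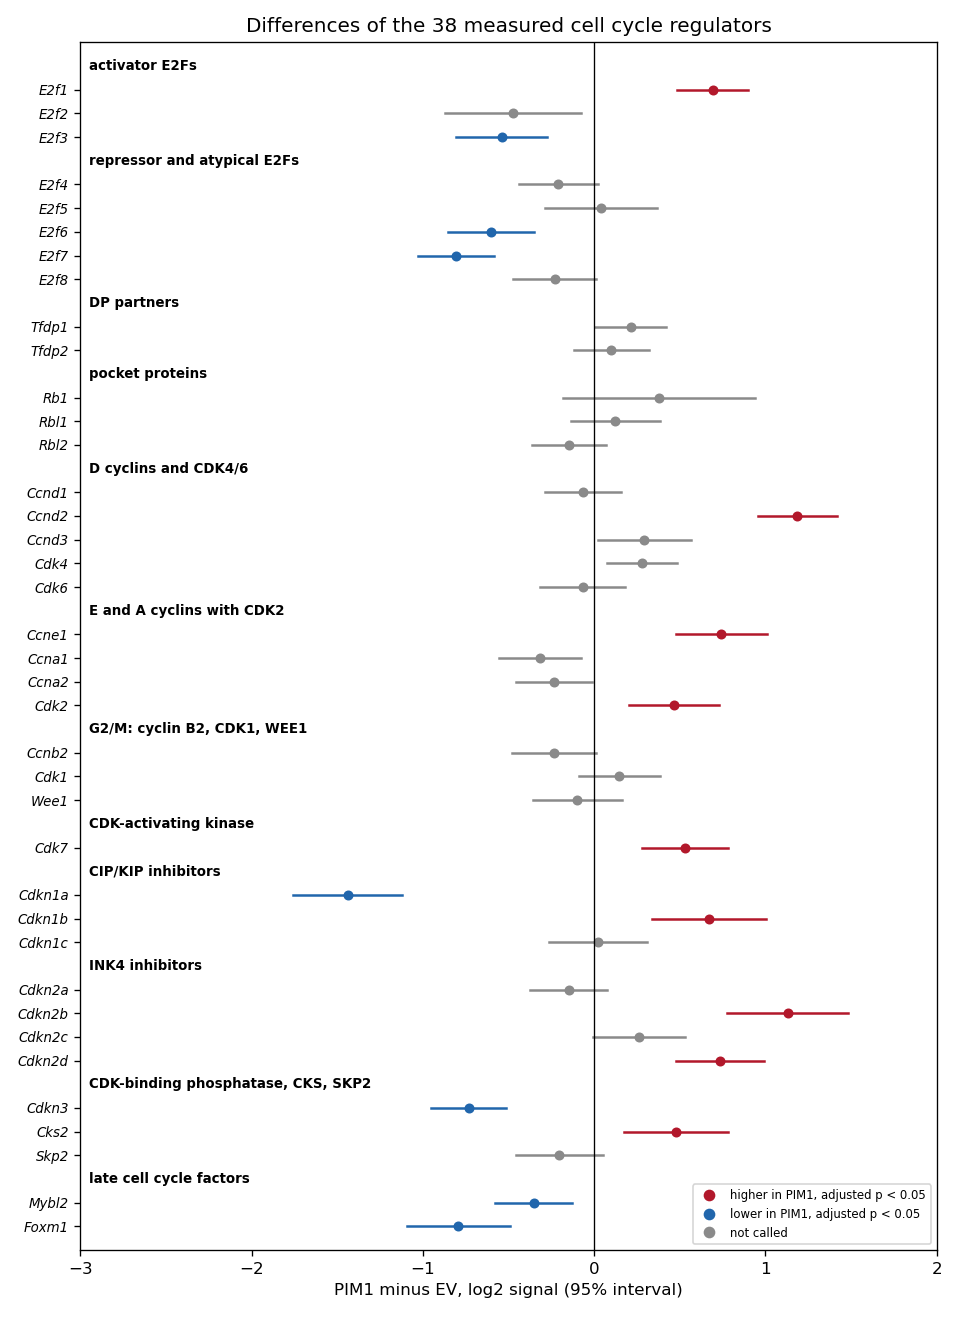
Differences between PIM1 and EV cells for the 38 measured cell cycle regulators, grouped by class, in log2 signal with 95% intervals from the limma fit (3 arrays per group). Red marks the 9 genes that rose, blue the 7 that fell, and grey the genes not called; Cdkn1a lies farthest to the left at -1.44 and Ccnd2 farthest to the right at 1.19.

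**Figure D2:**
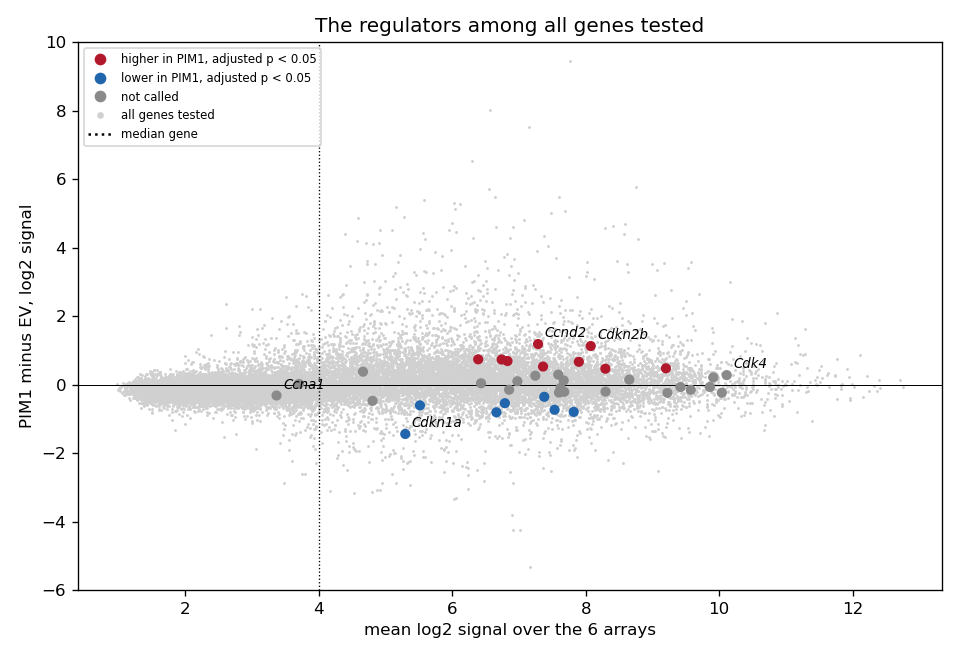
Difference between PIM1 and EV cells (log2 signal, vertical axis) against mean log2 signal over the 6 arrays (horizontal axis) for all 22180 genes tested, with the regulators as larger points coloured by call. Of the 38 regulators 36 lie to the right of the median gene (dotted line), and their differences sit between -1.44 and 1.19.

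The E2F family split. E2F1, E2F2 and E2F3 are the activators of the family, and they did not move together. E2f1 signal was 6.48, 6.49 and 6.47 in the 3 EV samples, against 7.17, 7.22 and 7.13 in the 3 PIM1 samples. Each PIM1 array lay above each EV array, and the groups were tight, with SDs of 0.01 and 0.05. E2f1 rose by 0.69 (standard error 0.09, adjusted p = 0.00086), which is 1.62-fold. E2f3 went the other way, from 7.15, 6.86 and 7.17 to 6.56, 6.54 and 6.46. It fell by 0.54 (adjusted p = 0.00982), without overlap between the groups. E2f2 read 4.64, 5.18 and 5.30 in EV and 4.69, 4.52 and 4.49 in PIM1, so that EV replicate 1 lay within the PIM1 range. The E2f2 difference of -0.47 was not called (95% interval -0.87 to -0.07, adjusted p = 0.0804), but it passed without EV replicate 1 (-0.67, adjusted p = 0.00659).

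Among the repressor and atypical E2Fs, 2 of 5 fell and none rose, with 0 higher at an unadjusted p under 0.05 as well. Of all genes 10.9% fell and 16.1% rose, and of those at or above the median signal 14.7% and 29.4%. E2F7, an atypical member that binds DNA without a DP partner and represses E2F target genes, had the largest difference of the family. E2f7 read 7.09, 7.02 and 7.09 in EV and 6.21, 6.21 and 6.36 in PIM1. The groups lay far apart relative to their spread, and E2f7 fell by 0.81 (standard error 0.10, adjusted p = 0.000537, 1.75-fold). E2f6, a repressor that acts without pocket proteins, read 5.76, 5.98 and 5.72 against 5.30, 5.17 and 5.17 and fell by 0.60 (adjusted p = 0.00453). E2f8, the other atypical member, differed by -0.23 (95% interval -0.47 to 0.01). E2f4 and E2f5, the repressors that work with p107 and p130, differed by -0.21 (-0.44 to 0.02) and 0.04 (-0.29 to 0.37). None of these 3 was called.

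Genes for the partners of E2F were not called. Tfdp1 and Tfdp2, which encode the DP subunits that classical E2Fs need to bind DNA, differed by 0.21 (95% interval 0.00354 to 0.42, adjusted p = 0.125) and 0.10 (-0.12 to 0.32). Rbl1 and Rbl2, which encode the pocket proteins p107 and p130, differed by 0.12 (-0.14 to 0.38) and -0.15 (-0.36 to 0.07). Rb1, the Cre target in both groups, read 4.49, 4.06 and 4.87 in EV and 4.80, 4.50 and 5.26 in PIM1. The arrays of the groups overlapped, and this brightest probe set differed by 0.38 (adjusted p = 0.293). A dimmer Rb1 probe set gave -0.35 (adjusted p = 0.295, over all probe sets here). The positions of these probes relative to the floxed exons are not known here, so the signals check nothing about the deletion.

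Since E2F proteins act on promoters of this same gene set, the promoters were searched for the E2F word. RefSeq promoter windows (GRCm38.p6, 250 bases before to 50 after a start site) matched 29 of the 38 measured regulators. The 4 spellings TTTCCCGC, TTTGGCGC, TTTCGCGC and TTTGCCGC were searched on both strands. At least 1 stood in the promoters of 8 of these 29 genes (27.6%), against 3.26% of 16990 tested genes with a promoter. The stretches around them are printed here because the same word stands in genes that rose, fell or were not called. Each runs 5′ to 3′ on the gene's strand with the word in capitals, and GCGGGAAA and GCGCGAAA are words read on the opposite strand.

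E2f7, which fell (chr10:110745201-110745288, + strand): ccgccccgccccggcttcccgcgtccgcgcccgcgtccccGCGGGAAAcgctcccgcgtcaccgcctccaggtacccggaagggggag
E2f3, which fell (chr13:29986027-29986114, - strand): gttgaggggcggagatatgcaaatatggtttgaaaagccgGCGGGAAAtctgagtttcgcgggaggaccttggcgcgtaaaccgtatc
Cdk2, which rose (chr10:128705144-128705231, - strand): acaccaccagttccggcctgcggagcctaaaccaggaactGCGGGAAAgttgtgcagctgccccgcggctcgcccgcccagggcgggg
Cdkn2a, not called (chr4:89294671-89294758, - strand): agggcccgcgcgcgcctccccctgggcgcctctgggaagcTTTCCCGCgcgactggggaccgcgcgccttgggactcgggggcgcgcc
Cdk1, not called (chr10:69352996-69353083, - strand): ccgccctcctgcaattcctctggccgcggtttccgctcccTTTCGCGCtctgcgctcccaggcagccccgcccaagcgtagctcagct
Rbl1, not called (chr2:157204505-157204592, - strand): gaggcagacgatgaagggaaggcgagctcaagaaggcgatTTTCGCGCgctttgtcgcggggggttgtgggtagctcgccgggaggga
Tfdp1, not called (chr8:13338668-13338755, + strand): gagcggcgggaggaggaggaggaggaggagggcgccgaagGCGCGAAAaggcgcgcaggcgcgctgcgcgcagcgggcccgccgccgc
E2f2, not called (chr4:136172273-136172323, + strand): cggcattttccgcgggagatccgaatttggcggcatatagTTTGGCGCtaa

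The word TTTCCCGC was shared by 4 of these genes, of which E2f7 and E2f3 fell, Cdk2 rose and Cdkn2a was not called. The capitals, as printed on the gene's strand, began 198, 11, 140 and 99 bases before the start site in E2f7, E2f3, Cdk2 and Cdkn2a. TTTCGCGC stood in Cdk1, Rbl1 and Tfdp1, none of which was called. By call, the E2F word was found in 1 of 8 genes that rose, 2 of 6 that fell and 5 of 15 not called. Words of the CHR element of late cell cycle genes (TTTGAA or TTTAAA) stood in 13 of the 29 genes, beside 27.5% of tested genes. The word of a CCAAT box (CCAAT) stood in 16 of 29, beside 41.6%. No E2F word overlapped a word of either kind. These are matches of letters on either strand anywhere in the window. Whether they act as elements was not tested. E2f1 and Ccne1 are among the genes whose windows hold no E2F word, which says only that these letters are not in those windows.

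At the entry into G1, cyclin D2 stood apart from the other D cyclins. Ccnd2 read 6.74, 6.59 and 6.75 in EV and 7.79, 7.92 and 7.93 in PIM1. The lowest PIM1 array was more than 1 log2 unit above the highest EV array. Ccnd2 rose by 1.19 (standard error 0.10, adjusted p = 8.51e-05), a 2.28-fold difference. Ccnd1, for cyclin D1, read 9.83, 9.94 and 9.91 against 9.82, 9.76 and 9.91, and its difference of -0.07 was not called (95% interval -0.29 to 0.15). Within arrays, Ccnd2 minus Ccnd1 moved from -3.20 ± 0.13 to -1.95 ± 0.10, a shift of 1.25 that was seen on all 3 PIM1 arrays. An exact permutation test of that shift gave a two-sided p of 0.1, the smallest that 3 against 3 arrays allow, also after adjustment over the 2 gene pairs compared in this way. Ccnd2 alone already separated the groups while Ccnd1 hardly moved, so the shift restates those values and is no further support. Ccnd3, for cyclin D3, read 7.40, 7.30 and 7.63 against 7.74, 7.83 and 7.64. Its groups did not overlap, but EV replicate 3 came just below the lowest PIM1 array. The Ccnd3 difference of 0.29 was not called (adjusted p = 0.107) and passed without EV replicate 3 (0.39, adjusted p = 0.0499).

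The kinases that pair with D cyclins were not called. Cdk4 read 10.00, 9.95 and 9.97 in EV and 10.23, 10.25 and 10.28 in PIM1. All PIM1 arrays were higher, by a small margin, and the difference of 0.28 (95% interval 0.07 to 0.49) just missed the threshold (adjusted p = 0.0508). Cdk6 differed by -0.07 (-0.32 to 0.18).

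Cyclin E1 and CDK2, which form the kinase of the G1 to S transition, both rose. Ccne1 read 6.10, 6.15 and 5.81 in EV and 6.79, 6.76 and 6.72 in PIM1. It rose by 0.74 (adjusted p = 0.00215, 1.67-fold), with all PIM1 arrays above all EV arrays. Cdk2 read 7.90, 8.18 and 8.11 against 8.46, 8.47 and 8.65 and rose by 0.47 (adjusted p = 0.018, 1.38-fold). The Cdk2 call was lost without PIM1 replicate 3, its highest array (0.41, adjusted p = 0.0585). The A cyclins did not rise with them. Ccna2, for the cyclin A of S phase and G2, read 10.18, 10.18 and 10.11 against 9.94, 9.82 and 10.01, a difference of -0.23 without overlap between groups that was not called (adjusted p = 0.117). Ccna1, the germ cell form, lay near the array median (3.52 in EV and 3.21 in PIM1) and was not called (adjusted p = 0.0573).

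The 3 measured genes of the mitotic kinase were not called. Cdk1 read 8.61, 8.48 and 8.64 in EV and 8.84, 8.71 and 8.64 in PIM1, and the groups overlapped. Its difference was 0.15 (95% interval -0.09 to 0.39, adjusted p = 0.336). Ccnb2, for cyclin B2, read 9.21, 9.37 and 9.45 against 9.14, 9.17 and 9.01. All PIM1 arrays were lower, and the difference of -0.24 (-0.48 to 0.0091) was not called (adjusted p = 0.144). Wee1, for the kinase that holds CDK1 inactive, differed by -0.10 (-0.35 to 0.16). Cdk7, for the kinase that activates CDKs by phosphorylation and also serves general transcription, rose. It read 7.04, 6.98 and 7.27 in EV and 7.59, 7.64 and 7.64 in PIM1, a rise of 0.53 (adjusted p = 0.00833) with EV replicate 3 nearest to the PIM1 arrays.

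CDK inhibitor genes held both the largest fall and several of the larger rises of the list. Of the 7 CIP/KIP and INK4 genes, 3 rose (42.9%) and 1 fell (14.3%). Of all genes 16.1% rose and 10.9% fell, and of those at or above the median signal 29.4% and 14.7%. With 7 genes these shares cannot be set apart. Cdkn1a, for p21, read 5.77, 6.21 and 6.07 in EV and 4.47, 4.54 and 4.71 in PIM1. The groups were separated by more than 1 log2 unit. Cdkn1a fell by 1.44 (standard error 0.14, adjusted p = 0.000159), which is 2.71-fold. Cdkn1b, for p27, went the opposite way, from 7.59, 7.77 and 7.33 to 8.15, 8.11 and 8.43. It rose by 0.67 (standard error 0.14, adjusted p = 0.0105, 1.59-fold), again without overlap. Cdkn1c, for p57, lay below the median gene in signal (3.69 and 3.71) and was not called, with a difference of 0.02 (95% interval -0.27 to 0.31).

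In the INK4 family, whose products inhibit CDK4 and CDK6, 2 of 4 genes rose. The share that rose was 16.1% of all genes and 29.4% of those at or above the median signal. Cdkn2b, for p15, read 7.47, 7.22 and 7.84 in EV and 8.63, 8.65 and 8.65 in PIM1. The EV arrays were spread (SD 0.31) and the PIM1 arrays nearly equal (SD 0.01). Cdkn2b rose by 1.13 (standard error 0.15, adjusted p = 0.00105, 2.19-fold). Cdkn2d, for p19 of the INK4 family, read 6.35, 6.47 and 6.30 against 7.22, 6.94 and 7.16 and rose by 0.74 (adjusted p = 0.00195, 1.66-fold). Cdkn2c, for p18, differed by 0.26 (95% interval -0.0076 to 0.53) and was not called. Cdkn2a lies beside Cdkn2b on chromosome 4 and encodes both p16 and the p53 activator ARF, which a gene-level signal does not separate. It read 9.72, 9.63 and 9.60 in EV and 9.43, 9.59 and 9.48 in PIM1. The Cdkn2a difference of -0.15 (-0.37 to 0.08) was not called. Within arrays, Cdkn2b minus Cdkn2a moved from -2.14 ± 0.34 to -0.86 ± 0.07, a shift of 1.28 in the same direction on all 3 PIM1 arrays (exact permutation p = 0.1, two-sided, the smallest possible here). That shift, too, follows from the Cdkn2b values above and is no further support.

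**Figure D3:**
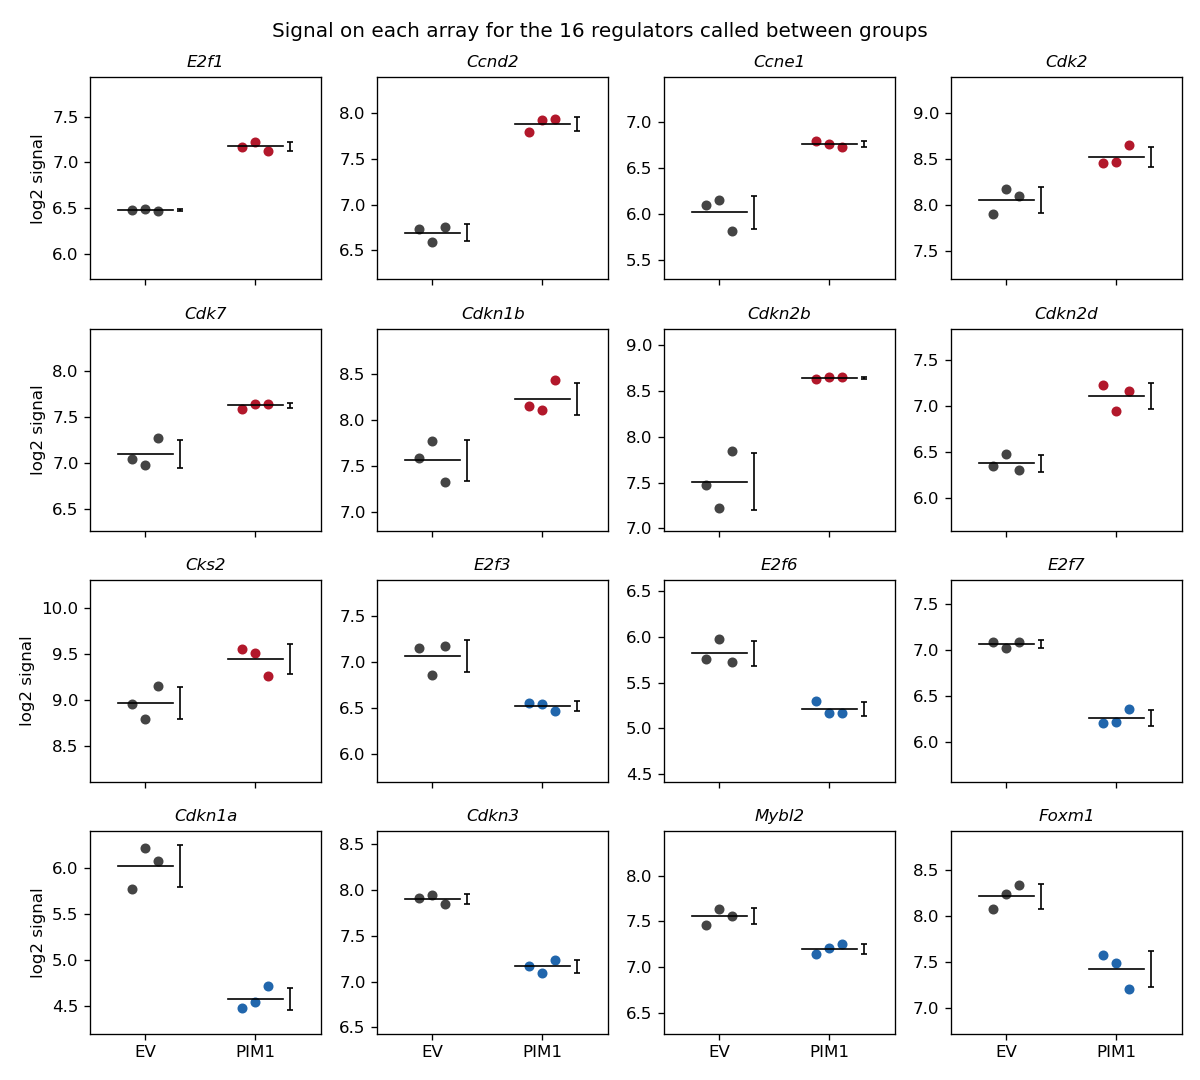
Log2 signal on each of the 3 EV and 3 PIM1 arrays for the 16 regulators called between the groups, 9 that rose (red) followed by 7 that fell (blue). EV points are dark grey. Lines are group means, bars beside them are SDs (n = 3), and each panel spans the same 2.2 log2 units around its own middle; in every panel the points of the groups do not overlap.

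Both late transcription factors of the list fell. Foxm1, for the transcription factor of G2 and mitosis genes, read 8.07, 8.24 and 8.34 in EV and 7.58, 7.49 and 7.21 in PIM1. It fell by 0.79 (standard error 0.13, adjusted p = 0.00286, 1.73-fold), and all PIM1 arrays were below all EV arrays. Mybl2, for B-MYB, read 7.46, 7.64 and 7.56 against 7.14, 7.21 and 7.26 and fell by 0.35 (adjusted p = 0.0301). The Mybl2 call was not stable: it was lost in 8 of 14 alternatives, with adjusted p up to 0.575 when its probe sets were averaged. A dim further probe set, at 3.40 in EV and 3.55 in PIM1, gave 0.15 (adjusted p = 0.698, tested over all probe sets). Without EV replicate 2 or 3 the adjusted p was 0.0819 and 0.0673, and without PIM1 replicate 1 or 2 it was 0.112 and 0.0912. Cdkn3, for a phosphatase that acts on the activating phosphate of CDKs, read 7.91, 7.95 and 7.84 against 7.17, 7.10 and 7.24. The groups were tight and apart, and Cdkn3 fell by 0.73 (standard error 0.10, adjusted p = 0.000841, 1.66-fold).

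Cks2 encodes a small subunit of CDK complexes, and its value depended on the probe set. Its brightest signal, carried with identical values by 3 probe sets, read 8.95, 8.79 and 9.15 in EV and 9.56, 9.51 and 9.25 in PIM1. It rose by 0.48 (adjusted p = 0.0294), with PIM1 replicate 3 close to EV replicate 3. The remaining Cks2 probe set read 7.81 in EV and 7.76 in PIM1, a change of -0.05 (adjusted p = 0.8, over all probe sets). The call was lost in 7 of 14 alternatives, including the mean of its probe sets (0.35, adjusted p = 0.0596). Without EV replicate 1 or 2 the adjusted p was 0.0661 and 0.0806, and without PIM1 replicate 1 or 2 it was 0.107 and 0.102. Skp2, for the ubiquitin ligase subunit that targets p27 for destruction, differed by -0.20 (95% interval -0.46 to 0.05) and was not called.

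Further cell cycle genes were counted in 5 lists around this machinery. The share called was 28.6% to 38.5% per list, against 27.0% of all genes and 44.0% of genes at or above the median signal. Of 29 measured G2 and mitosis genes, 11 fell and none rose by limma (2 had an unadjusted p under 0.05 in the higher direction), with a median difference of -0.19. The share that fell was 37.9%, beside 10.9% of all genes and 14.7% of those at or above the median signal. Kif11, for a spindle motor, fell by 1.02, and Cenpe, for a motor at kinetochores, by 0.84. Top2a, for a topoisomerase, fell by 0.69 and Ect2, for a cytokinesis factor, by 0.68. Mki67, for the proliferation marker Ki-67, read 10.68, 10.62 and 10.72 in EV and 10.20, 10.04 and 10.21 in PIM1 and fell by 0.52 (adjusted p = 0.00562); it is named because it is a standard marker, after its value was seen. The remaining 18 genes of this list were not called. Kif20a just missed, at 0.29 higher with all PIM1 arrays above all EV arrays (adjusted p = 0.05003 by limma). Tpx2 was higher by 0.25, also without overlap (adjusted p = 0.0848). Over the whole list 3 genes were higher and 14 lower without overlap, together 58.6%. Of all 22180 genes 4955 were higher and 4626 lower without overlap (43.2%). At or above the median signal it was 4399 and 2502 of 11090 genes (62.2%). Across the 14 alternatives 9 to 12 of the 29 were called lower and 0 to 2 higher. The 2 higher calls appeared with median centring, with a trended and robust variance, and with the brighter genes alone. Of 30 E2F target genes of S phase, 4 rose and 5 fell, with a median of -0.07 (4 and 3, median 0.02, after median centring, but 3 and 8, median -0.19, after quantile normalization, 3 and 7 after cyclic loess, and 4 and 10 with a trended and robust variance). Without EV replicate 1 or 3, or PIM1 replicate 1 or 2, only 3 genes were called lower. The mismatch repair gene Msh6 fell by 0.90 and the polymerase gene Pola1 by 0.81. Rrm2, for a subunit of ribonucleotide reductase, rose by 0.70 and Dut, for the enzyme that clears dUTP, by 0.65. With its probe sets averaged, Rrm2 differed by 0.21 and was not called (adjusted p = 0.141).

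Among 26 other cyclin, CDK and CDC25 genes, 6 rose and 4 fell, with a median of 0.06 (8 and 2 after median centring, 4 and 4 and a median of -0.02 after quantile normalization). The genes called lower numbered 2 without EV replicate 3 or PIM1 replicate 1 or 3, and 1 without PIM1 replicate 2. Cdk14 and Cdk5 rose by 1.04 and 0.99, and Cdk9, for the kinase of transcription elongation, rose by 0.62. Cdk13, for another kinase of transcription, fell by 0.94. Of 21 genes for the ubiquitin ligases SCF and APC/C, 3 rose and 3 fell, with a median of 0.08 (5 and 1 after median centring, 2 and 5 after quantile normalization), near the background share. Without EV replicate 1 or PIM1 replicate 2 only 1 gene was called lower, and without PIM1 replicate 1 only 1 higher. Fbxo5, for the APC/C inhibitor EMI1, fell by 0.81, and the APC/C subunit gene Cdc26 rose by 0.90. Cdc23, another APC/C subunit gene, rose by 0.42 but was lost without PIM1 replicate 1 (adjusted p = 0.0577). Cul1, the SCF scaffold gene, fell by 0.42 and was lost without EV replicate 1 (0.0598) or PIM1 replicate 1 or 2 (0.0774 and 0.0895). A list of 7 genes held the MuvB core, which joins p130 or B-MYB at cell cycle promoters, together with Mybl1 and Dyrk1a. Of these genes 1 rose and 1 fell, with a median of -0.09 (2 and 0, median 0.01, after median centring, but 1 and 2, median -0.21, after quantile normalization). Lin52 rose by 0.99 from 4.94, 5.49 and 5.37 to 6.19, 6.28 and 6.28. Rbbp4 fell by 0.42, and its call was lost without EV replicate 1 or 2 (adjusted p = 0.0794 and 0.0579) or PIM1 replicate 1 or 3 (0.113 and 0.0876); the mean of its probe sets gave -0.97. Lin37 and Lin54 differed by 0.30 and -0.21 and were not called. Lin37 passed without EV replicate 1 (adjusted p = 0.0355).

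**Figure D4:**
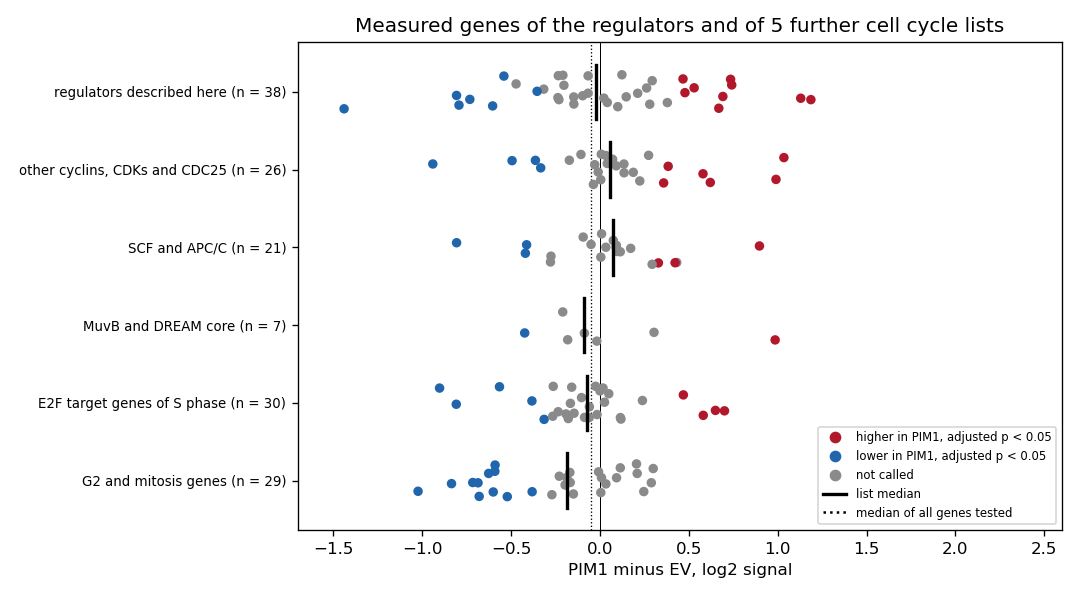
Differences between PIM1 and EV cells in log2 signal for the 38 regulators and for the measured genes of 5 further cell cycle lists, 1 point per gene, coloured by call (red rose, blue fell, grey not called). Thick bars are list medians and the dotted line is the median of all genes tested (-0.05); 11 of the 29 G2 and mitosis genes are blue and none is red in this fit, while the other lists hold both colours.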

How the data were processed

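RNA of 3 EV and 3 PIM1 samples was measured on arrays. The deposited values, 1 per probe set and array, were taken as log2 signals from their range. The sources used here give no log base, background correction, probe summary or normalization; per the submitters' processing notes, the tool was Affymetrix Expression Console. The authors' normalization was kept. Groups came from sample titles. Of 41345 probe sets, 23521 had 1 gene symbol in the platform annotation (23328 matched RefSeq GRCm38.p6 by Entrez identifier), 1814 had several and 16010 none; only the first were used, with the brightest probe set of a gene by its mean over the 6 arrays, leaving 22180 genes.

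PIM1 was compared with EV across all genes by limma 3.58.1 under R 4.3.3 (lmFit and eBayes, two-sided, with group alone in the model), with Benjamini-Hochberg adjustment and a threshold of 0.05. Only the limma steps were tried on simulated arrays with known changes, and the other steps were not. The number of arrays limits the precision, and no detection call was used. All measured regulators are named, Pim1, and the 4 genes of smallest p in each further list. Mki67, Kif20a and Tpx2 were named after their values were seen. The regulators and lists were chosen with earlier results of these data known. Cyclic loess was added after seeing the data. Promoter sequences are RefSeq's.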

Additional observations from a re-analysis of the deposited data

How the results depend on the processing

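The 14 alternatives changed the normalization (quantile, median centring, cyclic loess), the variance model (trended and robust), the genes or probe sets tested (brighter genes, averaged probe sets, every probe set), added a replicate block, or left out 1 array. They called 14 to 21 regulators (16 as reported) and 4167 to 6748 genes or probe sets (5995 as reported). No called regulator turned its sign, and 13 of the 16 calls held under every alternative run; the exceptions were Cdk2, Cks2 and Mybl2. Mybl2 was also lost after median centring (adjusted p = 0.113). Of the 22 uncalled regulators 14 stayed uncalled throughout. Those that passed somewhere were Ccna2, Ccnb2, Ccnd3, Cdk4, E2f2, E2f8, Rb1 and Tfdp1. Up to 3 uncalled regulators turned sign under a setting, with median centring. Leaving out an array gave 14 to 16 called regulators and 4167 to 5369 called genes. Among the brighter genes alone the median difference of all genes tested was 0.10. With the replicate number as a block 15 regulators and 5321 genes were called, Cks2 and Mybl2 were lost and Rb1 passed (0.38, adjusted p = 0.0472). Deviations of same-numbered arrays correlated at 0.06, -0.03 and 0.0087, so no array-wide pairing by number was seen. A correlation over all genes cannot say whether the samples were paired, and the labels do not tell.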
